A study of Mus musculus with 4 samples.

Results

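The Trim5/Trim12/Trim30/Trim34 cluster is a run of neighbouring genes on mouse chromosome 7, and its transcripts were read out in single bone marrow cells of TLR9-/- and wild-type (WT) mice. The members were the 10 genes named Trim5, Trim12a, Trim12c, Trim30a, Trim30b, Trim30c, Trim30d, Trim34a, Trim34b and Gm15133, found by symbol among the 31053 genes of the 4 count matrices, and all 10 were present. They were picked because they lie side by side and because several of them were read in one genotype only in these same libraries. Every difference between genotypes in a member below is therefore given as a description, with no test, and the tests are kept for contrasts between cell lineages and for genes outside the cluster.

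Bone marrow mononuclear cells (BMNCs) were profiled by droplet-based single-cell RNA sequencing of the 5′ ends of transcripts. The published methods do not describe how the cells were prepared for sequencing. For other assays, marrow was flushed from femur and tibia and purified on a density gradient, for osteoclast cultures after overnight culture with M-CSF. There were 2 groups of mice on the C57BL/6 background, TLR9-/- animals that lack functional Toll-like receptor 9 in every cell and WT animals, with 2 mice per group and 1 library per mouse. The mice were untreated, their age was not given for this experiment, and the 2 lines were bred in separate cages, so genotype, cage and any other difference between the lines cannot be told apart. The libraries were made in 2 independent experiments with 1 mouse of each genotype, and with 2 libraries a group the spread given here is that between mice and libraries together.

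The 4 libraries held 39167 cells after filtering, between 8895 and 10781 per library, with 31210188 to 63958243 unique molecular identifiers (UMIs, counts of captured molecules) per library. Depth moved with genotype: the median cell carried 2545 and 3618 UMIs in the TLR9-/- libraries against 1759 and 2287 in the WT libraries, so levels are given as UMIs per 1000000 UMIs of the same library or cell class (CPM). UMIs from 5′ ends count molecules and are not scaled by transcript length. Counts of Tlr9, the targeted gene, were 41 and 48 in TLR9-/- mice and 120 and 97 in WT mice, a 3.95-fold higher mean CPM in WT with no overlap; it was not absent from the TLR9-/- libraries, and which part of the gene the allele lacks was not examined. Each pair of libraries shared between 118 and 203 cell barcodes, and counts without those cells are given below for 3 members that one genotype nearly lacked.

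Tripartite motif (TRIM) proteins carry a RING domain with ubiquitin ligase activity, a B-box and a coiled coil, and in this family mostly a C-terminal SPRY domain that recognises the target. Primate TRIM5 is best known for binding the capsid of incoming retroviruses and blocking infection, and mice have several close relatives of it, Trim5, Trim12a and Trim12c, which arose by local duplication. Trim34a and Trim34b are the mouse counterparts of TRIM34, and Trim30a, the best studied of the rodent-specific Trim30 genes, encodes a protein that dampens Toll-like receptor signalling to NF-κB by promoting loss of TAB2 and TAB3. Several genes of this cluster are induced by interferon. Gm15133 is annotated as a noncoding antisense transcript.

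The cluster spans chr7:104244457-104507849 of GRCm38 (mm10), 263.4 kb that hold 11 genes of the annotation, the members and 1 other, Gm47248, with 0 and 0 UMIs in TLR9-/- and 2 and 1 in WT libraries. In chromosomal order, Trim34a (ENSMUSG00000056144, plus strand) lies at chr7:104244457-104262234 and Trim5 (ENSMUSG00000060441, minus strand) at chr7:104263386-104288094. Trim12a (ENSMUSG00000066258, minus strand) follows at chr7:104299894-104315466, and Gm15133 (ENSMUSG00000087175, plus strand) at chr7:104315019-104324838 overlaps it by 448 bp on the opposite strand. Next come Trim34b (ENSMUSG00000090215, plus strand) at chr7:104329471-104336909 and Trim12c (ENSMUSG00000057143, minus strand) at chr7:104338754-104353362. The Trim30 genes close the run on the minus strand, with Trim30b (ENSMUSG00000052749) at chr7:104355382-104369884, Trim30c (ENSMUSG00000078616) at chr7:104382065-104400837, Trim30a (ENSMUSG00000030921) at chr7:104409025-104465193 and Trim30d (ENSMUSG00000057596) at chr7:104470014-104507849.

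The promoters of the reference genome show how alike the copies are there at the place where 5′ reads begin. All 10 members had a RefSeq promoter entry (GRCm38.p6), and those of the 7 members the results turn on most are printed 5′ to 3′ on the gene's own strand, from 250 bases before to 30 bases after the RefSeq start. Trim30a had a further entry, whose start lies 19068 bases from the annotated start of the gene. For it the entry at the annotated start is printed and compared. Capitals mark the letters GAAA, any 2 bases and GAAA again, or TTTC, any 2 bases and TTTC where read on the other strand, which is the core spacing of interferon-stimulated response elements.
Trim5, chr7:104288077-104288356, minus strand: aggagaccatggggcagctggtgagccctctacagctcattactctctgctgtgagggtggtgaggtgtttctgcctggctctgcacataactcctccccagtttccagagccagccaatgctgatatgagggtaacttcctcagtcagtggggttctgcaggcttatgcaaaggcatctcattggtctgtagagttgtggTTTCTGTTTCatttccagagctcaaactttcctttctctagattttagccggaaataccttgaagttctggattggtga
Trim12a, chr7:104315466-104315745, minus strand: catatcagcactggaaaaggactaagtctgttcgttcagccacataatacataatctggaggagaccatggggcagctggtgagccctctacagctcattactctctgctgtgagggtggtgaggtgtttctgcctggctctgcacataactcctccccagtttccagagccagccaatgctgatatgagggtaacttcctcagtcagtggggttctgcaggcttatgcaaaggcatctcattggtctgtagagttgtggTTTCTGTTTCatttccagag
Trim12c, chr7:104353320-104353599, minus strand: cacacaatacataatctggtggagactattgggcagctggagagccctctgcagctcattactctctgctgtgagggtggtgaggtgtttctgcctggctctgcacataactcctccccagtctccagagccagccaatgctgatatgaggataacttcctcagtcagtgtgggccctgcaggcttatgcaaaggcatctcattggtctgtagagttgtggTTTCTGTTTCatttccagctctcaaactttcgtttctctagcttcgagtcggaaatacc
Trim34a, chr7:104244207-104244486, plus strand: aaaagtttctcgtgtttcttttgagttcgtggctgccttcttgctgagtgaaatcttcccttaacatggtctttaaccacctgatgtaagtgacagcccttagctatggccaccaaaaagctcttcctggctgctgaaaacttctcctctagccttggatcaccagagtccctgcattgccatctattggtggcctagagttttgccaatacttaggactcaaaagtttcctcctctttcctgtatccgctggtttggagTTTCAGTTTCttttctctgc
Trim34b, chr7:104329221-104329500, plus strand: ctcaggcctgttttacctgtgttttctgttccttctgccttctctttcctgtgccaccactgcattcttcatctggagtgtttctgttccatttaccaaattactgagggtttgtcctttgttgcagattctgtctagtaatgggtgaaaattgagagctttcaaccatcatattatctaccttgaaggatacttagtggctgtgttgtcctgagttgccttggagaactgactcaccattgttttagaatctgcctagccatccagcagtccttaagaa
Trim30a, chr7:104465164-104465443, minus strand: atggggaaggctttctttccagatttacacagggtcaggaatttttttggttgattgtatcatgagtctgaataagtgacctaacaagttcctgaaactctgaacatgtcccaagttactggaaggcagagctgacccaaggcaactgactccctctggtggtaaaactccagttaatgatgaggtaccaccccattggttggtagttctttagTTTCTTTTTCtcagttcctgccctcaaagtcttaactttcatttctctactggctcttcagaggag
Trim30d, chr7:104507820-104508099, minus strand: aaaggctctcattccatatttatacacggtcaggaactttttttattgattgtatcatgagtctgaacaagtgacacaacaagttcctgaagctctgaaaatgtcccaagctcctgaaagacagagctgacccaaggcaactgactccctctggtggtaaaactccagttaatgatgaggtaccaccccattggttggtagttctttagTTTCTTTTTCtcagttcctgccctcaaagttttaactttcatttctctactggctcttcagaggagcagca

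Searched on both strands over 250 bases before and 50 after each start, this motif was found in 6 of the 10 members: Trim34a, Trim5, Trim12a, Trim12c, Trim30a and Trim30d. It was not found in these windows of Gm15133, Trim34b or Trim30c. Nor was it found in that of Trim30b, but the RefSeq start used there lies 11238 bases from the annotated start of the gene, so the sequence before the annotated start was not searched. Of the 32851 promoter windows in the table, 3.44% held it. The letters were identical in Trim5, Trim12a and Trim12c (TTTCTGTTTC), and identical in Trim30a and Trim30d (TTTCTTTTTC), while Trim34a carried TTTCAGTTTC. Trim5 and Trim12a promoters were 100% identical over 241 aligned columns, although their RefSeq starts differ within that stretch, and Trim5 and Trim12c were 94.2% identical over 278 columns. Trim30a and Trim30d were 93.9% identical over 294 columns. These are reference sequences, and the promoters of the mice themselves were not read. In the counts that follow, Trim12c was read in both genotypes while Trim5 and Trim12a were read almost only in WT. Likewise Trim30a was read in both and Trim30d almost only in WT. Whether promoter sequence has a part in this was not tested.

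Because a read that matches 2 genes equally well is not counted for either, the annotated transcripts (GENCODE M21) were searched for stretches shared between genes. Within the first 500 bases of transcripts, where 5′ reads fall, 54.3% of the 50-base windows of Trim34b also occurred in Trim34a, and 13.1% of those of Trim34a occurred in Trim34b. Trim5 shared 61.2% of its windows with other members, 40.7% with Trim12c and 26.6% with Trim12a, and Trim12c shared 50.6%. Trim30a and Trim30d shared 21.4% and 22.5% of theirs, whereas Trim30b, Trim30c and Gm15133 shared 0%. At 100 bases the shares fell to 28.4% for Trim5, 21.4% for Trim34b, 19.3% for Trim12c, 17.3% for Trim30a, 14.3% for Trim30d, 6.18% for Trim12a and 0% for Trim34a. Each of these members thus also had windows of its own, and counts of Trim5, Trim12c and Trim34b are the most exposed to reads that could not be placed.

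**Figure D1:**
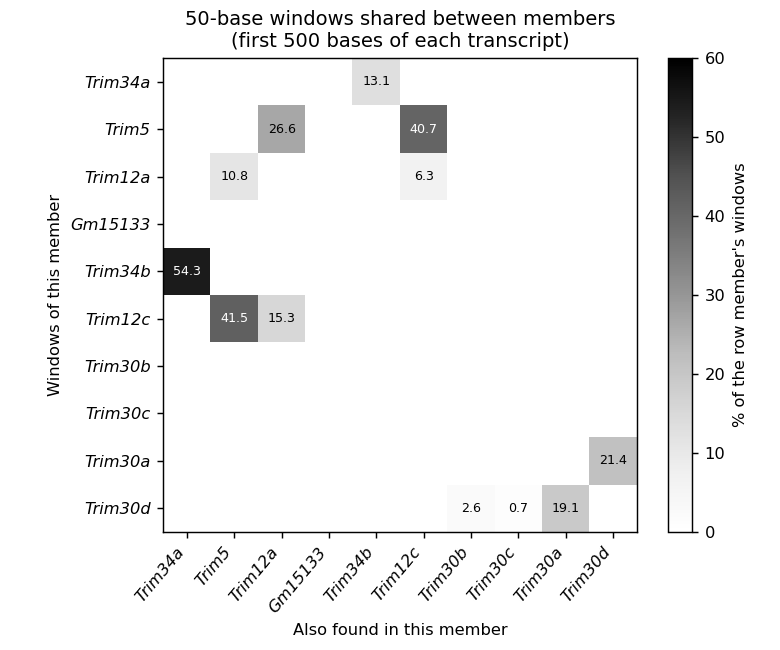
Share of each member's 50-base windows (rows, first 500 bases of its annotated transcripts) that also occur in each other member (columns), in percent of the row member's windows; blank squares are 0. Sharing runs within the Trim34 pair, among Trim5, Trim12a and Trim12c, and within the Trim30 genes, most of all for Trim34b with Trim34a at 54.3%.

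Across all cells, 8 of the 10 members had CPM values that did not overlap between genotypes, 6 of them higher in WT and 2 higher in TLR9-/-. Over all 14194 genes tested between genotypes with edgeR, 0.134% were called higher and 0.134% lower in TLR9-/- libraries (adjusted p under 0.05), and since the members were chosen by this contrast nothing is read from their count against it. Values without overlap are far more common than calls with 2 libraries a group: of the same 14194 genes, 25.9% were higher in both WT libraries and 25.1% in both TLR9-/- libraries.

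Trim12a showed the widest gap. It gave 5 and 7 UMIs in the TLR9-/- libraries against 1051 and 1256 in the WT libraries, that is 0.0996 and 0.109 CPM against 33.7 and 30.3 CPM. The mean was 0.105 ± 0.00697 CPM (SD, n = 2) in TLR9-/- and 32 ± 2.35 CPM (SD, n = 2) in WT, a 306-fold difference. Trim5 gave 8 and 11 UMIs in TLR9-/- and 368 and 490 in WT libraries, with CPM values of 0.159, 0.172, 11.8 and 11.8, a 71.3-fold difference in mean CPM. Both genes were thus all but unread in TLR9-/- cells and read at even levels in both WT mice. Gm15133, whose 5′ part overlaps Trim12a, gave 0 UMIs in both TLR9-/- libraries and 57 and 34 in WT, so that against the floor of 3 UMIs over the genotype it was at least 50.4-fold higher in WT.

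Trim12c, their close copy, did not follow them. It gave 1733 and 2217 UMIs in TLR9-/- and 1230 and 1258 in WT libraries, or 34.5 and 34.7 CPM against 39.4 and 30.4 CPM. Its means, 34.6 ± 0.102 CPM in TLR9-/- and 34.9 ± 6.37 CPM in WT (SD, n = 2 each), differed by less than the spread between the WT libraries. Of the summed UMIs of Trim5, Trim12a and Trim12c, Trim12c held 99.3% and 99.2% in TLR9-/- libraries and 46.4% and 41.9% in WT libraries. The sum of the 3 genes was 34.8 and 34.9 CPM in TLR9-/- against 84.9 and 72.6 CPM in WT, 2.26-fold higher in WT.

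The Trim34 pair was split between the genotypes. Trim34a gave 72 and 113 UMIs in TLR9-/- and 698 and 551 in WT libraries, or 1.43 and 1.77 CPM against 22.4 and 13.3 CPM, and its mean of 17.8 ± 6.4 CPM (SD, n = 2) in WT was 11.1-fold that of 1.6 ± 0.235 CPM (SD, n = 2) in TLR9-/-. Trim34b ran the other way, with 62 and 76 UMIs in TLR9-/- and 2 and 0 in WT libraries. Its CPM was 1.23 and 1.19 in TLR9-/- and 0.0641 and 0 in WT, and the ratio of pooled levels was 43.9. The exact 95% counting interval of that ratio, from 11.9 to 366, covers counting error only. It leaves out the spread between mice and is not used as a test. Trim34b was the only member read almost exclusively in TLR9-/- cells. Together the pair summed to 2.67 and 2.96 CPM in TLR9-/- and 22.4 and 13.3 CPM in WT libraries, 6.36-fold higher in WT, and Trim34a made up 53.7% and 59.8% of that sum in TLR9-/- and 99.7% and 100% in WT.

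Among the Trim30 genes, Trim30d was the one read almost only in WT. It gave 13 and 26 UMIs in TLR9-/- and 538 and 394 in WT libraries, or 0.259 and 0.407 CPM against 17.2 and 9.52 CPM, a 40.2-fold difference between means of 0.333 ± 0.104 and 13.4 ± 5.46 CPM (SD, n = 2 each). Trim30a, the member with the most UMIs, gave 2198 and 2402 UMIs in TLR9-/- and 2342 and 1644 in WT libraries. In CPM these were 43.8 and 37.6 against 75 and 39.7, and the values overlapped, with means of 40.7 ± 4.4 and 57.4 ± 25 CPM (SD, n = 2 each). The high value came from 1 mouse, WT 1.

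The 2 low members of this group differed in opposite directions. Trim30b gave 214 and 173 UMIs in TLR9-/- and 204 and 358 in WT libraries, and its CPM of 4.26 and 2.7 against 6.54 and 8.65 amounted to a 2.18-fold higher mean in WT. Trim30c gave 74 and 87 UMIs in TLR9-/- and 29 and 10 in WT libraries, and its CPM of 1.47 and 1.36 against 0.929 and 0.242 amounted to a 2.42-fold higher mean in TLR9-/-. The size of the Trim30c difference hung on the WT libraries, with a fitted log2 difference of 1.31 from all 4, 0.61 without WT 2 and 2.54 without WT 1. Summed over the 4 Trim30 genes the level was 49.8 and 42 CPM in TLR9-/- and 99.7 and 58.1 CPM in WT libraries, and summed over all 10 members it was 87.2 and 79.9 CPM against 209 and 145 CPM, 2.12-fold higher in WT.

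**Figure D2:**
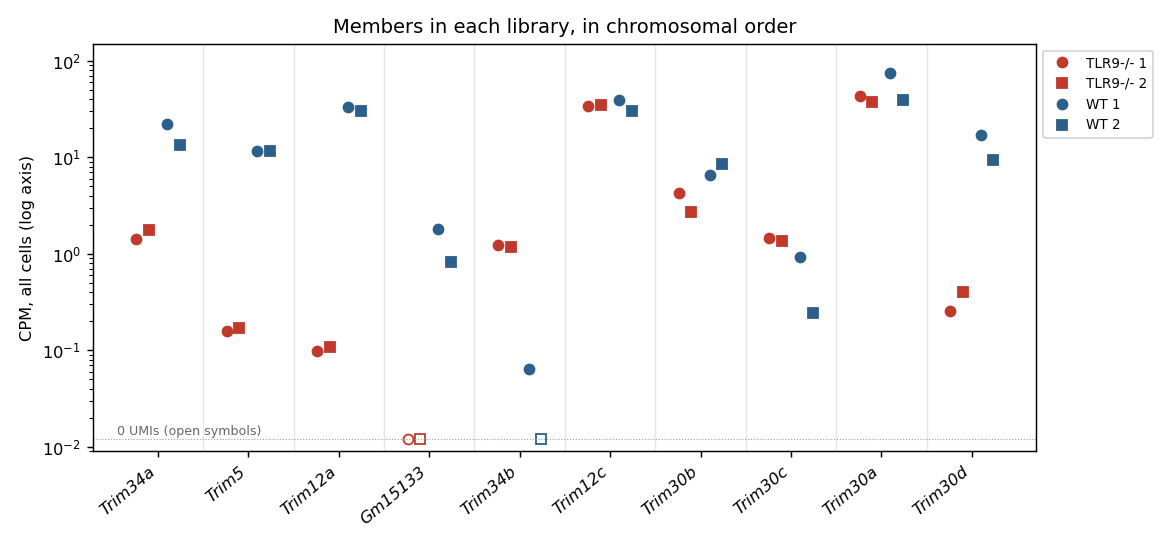
CPM over all cells (log axis) of each member in each of the 4 libraries, in chromosomal order, with TLR9-/- libraries in red and WT libraries in blue, replicate 1 as circles and replicate 2 as squares; open symbols on the dotted line mark libraries with 0 UMIs. Trim12a, Trim5, Trim30d, Gm15133 and Trim34a are low in both TLR9-/- libraries, Trim34b is low in both WT libraries, and Trim12c and Trim30a overlap.

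The few molecules read in the genotype where a gene was low lay mostly 1 to a cell. The 12 Trim12a UMIs of the TLR9-/- libraries lay in 12 different cells of 4 classes, the 19 Trim5 UMIs in 19 cells of 10 classes, and the 39 Trim30d UMIs in 39 cells, of which 1 had a barcode that also occurred in a WT library. The 185 Trim34a UMIs in TLR9-/- libraries fell in 183 cells of all 12 classes compared below, and 5 of these cells had a barcode shared with a WT library. No TLR9-/- cell therefore carried more than 1 UMI of Trim5, Trim12a or Trim30d, whereas the fullest WT cell held 3, 4 and 4. By class, the residual Trim30d UMIs of TLR9-/- libraries were uneven. Plasmacytoid dendritic cells held 4 and 7 of them (2.27 and 3.23 CPM), and B cells held 0 and 0. Leaving out all cells with a shared barcode left Trim12a at 5, 7, 999 and 1202 UMIs, Trim30d at 11, 25, 510 and 372 UMIs and Trim34b at 58, 74, 2 and 0 UMIs in the order TLR9-/- 1, TLR9-/- 2, WT 1, WT 2.

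One WT mouse stood above the other in interferon-stimulated genes and in several members. Over a list of 51 measured interferon-stimulated genes, the summed level was 4752 and 4795 CPM in the TLR9-/- libraries, 7049 CPM in WT 1 and 3488 CPM in WT 2, and 50 of the 51 were higher in WT 1 than in WT 2. The share of all genes that were higher in WT 1 than in WT 2 is not given here. Trim34a, Trim30a and Trim30d were likewise higher in WT 1 (22.4, 75 and 17.2 CPM) than in WT 2 (13.3, 39.7 and 9.52 CPM). So were members without the motif, Gm15133 (1.83 against 0.822 CPM) and Trim30c (0.929 against 0.242 CPM), and also Trim12c (39.4 against 30.4 CPM). Trim30b was lower in WT 1 (6.54 against 8.65 CPM), and Trim34b gave only 2 and 0 UMIs. Trim5 and Trim12a were close in the 2 WT mice. The part of the interferon-stimulated level in the members' values was not tested. The same order was seen within lineages, where the list summed to 8996 CPM in WT 1 and 4134 CPM in WT 2 monocyte-lineage cells and to 6515 and 3952 CPM in B-lineage cells, with 5169 and 5111 CPM and 4032 and 5320 CPM in the TLR9-/- libraries.

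To see in which cells each member was read, cells were clustered without the members and without the other genes within 5 Mb of them, and clusters were named from marker genes. This gave 12 classes with at least 50 cells in every library, 11 of them named, and no member was used to build them. For several members the difference between genotypes was seen in many classes. Trim5, Trim12a and Trim30d were higher in both WT libraries than in both TLR9-/- libraries in 12 of 12 classes, Trim34a in 11 and Gm15133 in 10, while Trim34b was higher in TLR9-/- without overlap in 10 of 12. For genes with at least 20 UMIs in a class, the share higher in both WT libraries ran from 11.7% to 24.1% over the 12 classes, and the share higher in both TLR9-/- libraries from 13.9% to 24.7%. With the same minimum, summed over the 4 libraries, Trim12a was without overlap in 12 of 12 classes, Trim34a in 11 of 11, and Trim5 and Trim30d in 9 of 9 each. These 4 members reached it mainly through WT counts, such as 0, 0, 159 and 254 UMIs for Trim12a in B cells. Their counts of classes thus follow from the choice of members, and nothing is read from them against those shares. Gm15133 and Trim34b reached it in only 1 class each, and several of their classes rested on almost nothing, such as Gm15133 in neutrophils with 0, 0, 1 and 2 UMIs and Trim34b in basophils with 2, 4, 0 and 0. In the class where Trim34a overlapped, natural killer (NK) cells, it rested on 2, 3, 8 and 1 UMIs. Trim30a was higher in WT without overlap in 8 classes and Trim30b in 7. Trim30c was higher in TLR9-/- in 5 and in WT in 1, and Trim12c overlapped in 10 of 12. With at least 20 UMIs, Trim30a was without overlap in 8 of 12 classes, Trim30b in 3 of 6 and Trim30c in 2 of 3. Classes are cuts of the same 4 libraries and do not repeat the comparison, so nothing is read from these counts either. Over all cells Trim30a overlapped. The class where Trim30c was higher in WT, B-cell precursors, rested on 0, 0, 1 and 2 UMIs.

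Levels differed by cell class, and each gene had its own order in WT cells. All ranks are among the 12 classes, which leave out macrophages, plasma cells and mesenchymal cells because these had under 50 cells in some libraries. Trim34a was highest in B cells, at 79.6 and 61.6 CPM in the 2 WT libraries (70.6 ± 12.7, SD), both above the next class, T cells, at 29.2 ± 18.9 CPM, and it was lowest in monocyte precursors at 5.49 CPM. In TLR9-/- B cells it was 2.53 and 7.24 CPM. Trim5 was highest in WT B cells at 32 and 47.5 CPM, which did not separate from T cells at 33.4 ± 19.9 CPM, and was lowest in erythroid cells at 2.46 CPM. Trim12a had another order, with NK cells at 91.1 and 98.6 CPM above plasmacytoid dendritic cells at 81.1 and 76 CPM and B cells at 65.2 and 81.5 CPM, and with erythroid cells lowest at 8.34 CPM. So B cells, T cells and plasmacytoid dendritic cells had high means for these genes, as did NK cells, which for Trim34a rested on 8 and 1 UMIs. B-cell precursors were lower, at 15.9 CPM for Trim34a, 15.4 CPM for Trim5 and 41.1 CPM for Trim12a. Erythroid cells and monocyte precursors came last. These levels are shares of the UMIs of a class, and depth per cell differed between lineages. In WT libraries the median cell held 1122 and 1516 UMIs in the B lineage and 4722 and 6467.5 in the monocyte lineage. UMIs of a member per cell were not compared, and their order may differ.

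In TLR9-/- libraries, Trim12a gave 0 UMIs in 8 of the 12 classes, B, T and NK cells and plasmacytoid dendritic cells among them. Against the floor of 3 UMIs its level was at least 99.4-fold higher in WT B cells and at least 103-fold higher in WT plasmacytoid dendritic cells. The monocyte class was the highest for Trim12a in TLR9-/- libraries, at 0.312 and 0.281 CPM from 2 and 2 UMIs, against 34.1 and 24.9 CPM in WT monocytes.

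By mean, Trim12c was highest in basophils in both genotypes (TLR9-/-, 67.4 ± 11.1 CPM, and WT, 78.5 ± 13.3 CPM, SD, n = 2 each) and lowest in monocyte precursors, at 22 and 18 CPM. In TLR9-/- libraries basophils did not separate from plasmacytoid dendritic cells at 66.9 CPM, and monocyte precursors did not separate from erythroid cells in either genotype (22.6 and 22.3 CPM). In B cells it was 61.4 and 65.2 CPM in TLR9-/- and 62.3 and 62.3 CPM in WT libraries.

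Among the 12 classes, dendritic cells had the highest mean Trim30a levels in both genotypes. It was highest in plasmacytoid dendritic cells, which make large amounts of type I interferon, with 174 and 166 CPM in TLR9-/- and 237 and 189 CPM in WT libraries, and next in conventional dendritic cells, with 85.2 and 82.8 CPM against 162 and 129 CPM. In WT, conventional dendritic cells did not separate from monocytes at 129 and 84.4 CPM. Erythroid cells were lowest, at means of 11.2 and 18.1 CPM. By mean, Trim30d was also highest in plasmacytoid dendritic cells in WT, at 68.5 and 52.5 CPM, where it was 2.27 and 3.23 CPM in TLR9-/- libraries. It did not separate there from WT NK cells at 62.1 and 26.9 CPM. In the unranked macrophages it was 52 and 77.5 CPM in WT, from 5 and 5 UMIs.

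By mean, Trim30b was highest in neutrophils in both genotypes. Its level there was 26.3 and 11.6 CPM in TLR9-/- and 22 and 32.4 CPM in WT libraries, which overlapped, while in B cells it was 6.33 and 6.84 CPM against 22.6 and 17.7 CPM, which did not. In WT, neutrophils and B cells did not separate. Trim30c and Trim34b were low throughout, with Trim30c at most 4.4 ± 1.75 CPM (TLR9-/- B cells) and Trim34b at most 4.22 ± 2.06 CPM (TLR9-/- plasmacytoid dendritic cells, SD, n = 2 each).

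**Figure D3:**
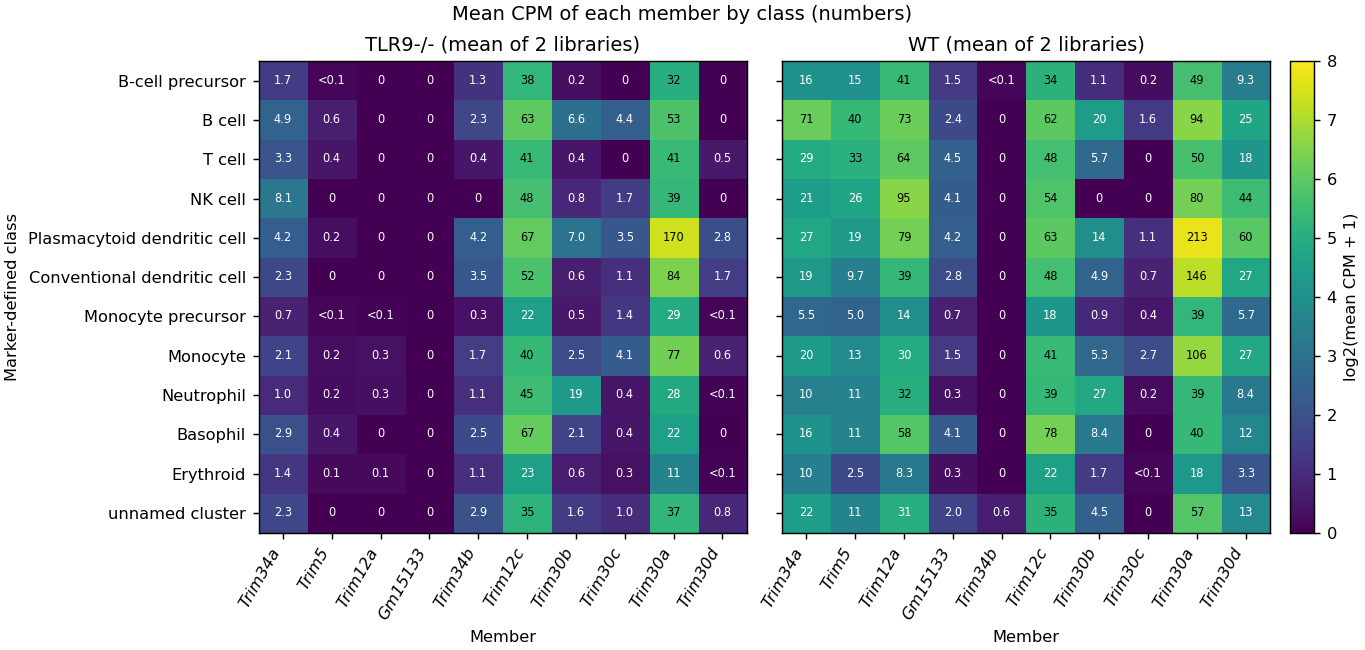
Mean CPM of 2 libraries for each member (columns, chromosomal order) in each of 12 cell classes (rows), TLR9-/- at left and WT at right; the colour is log2(mean CPM + 1) and the number is the mean CPM. The columns of Trim5 and Trim12a are near 0 in every TLR9-/- class. That of Trim30d is low there and reaches 2.75 CPM in plasmacytoid dendritic cells. The column of Trim34b is near 0 in every WT class, and those of Trim12c and Trim30a are filled in both.

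Contrasts between lineages within the same mice were not used to choose the members and were tested, with UMIs summed per library and lineage and the library as a block. Between the monocyte lineage (monocytes, their precursors and macrophages) and the B lineage (B cells and B-cell precursors), 8 members could be tested. Of these, edgeR's quasi-likelihood test called 1 higher and 5 lower in the monocyte lineage. Trim34b and Gm15133 did not pass the count filter over all 4 libraries. Within 1 genotype they could be tested: Trim34b stood at −0.83 in TLR9-/- (SE 0.49, edgeR adjusted p = 0.156) and Gm15133 at −0.7 in WT (SE 0.51, adjusted p = 0.247). Over all 11516 genes tested, 35.9% were called higher and 34.4% lower, so calls are common between lineages and the members' share is read only beside that; the background includes genes that defined the clusters. The median log2 fold change was −0.747 over the 8 members. Lineage contrasts compare scaled shares of UMIs, and UMIs per cell were not compared. Trim5, Trim12a and Trim30d had few or 0 UMIs in TLR9-/- libraries, so in each lineage contrast their values rest mainly on the WT mice. They passed the count filter only through the WT libraries, where they were high, so their calls describe WT mice. In WT libraries alone, Trim5 stood at −1.34 (SE 0.18) and Trim12a at −1.1 (SE 0.13) in the monocyte lineage.

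The 5 that fell were Trim34a, Trim5, Trim12a, Trim12c and Trim30b. Trim34a fell by 1.30 on the log2 scale (SE 0.17, edgeR adjusted p = 0.000158), Trim5 by 1.32 (SE 0.20, adjusted p = 0.000413) and Trim12a by 1.05 (SE 0.19, adjusted p = 0.00128). In CPM, Trim12a in WT libraries was 22.9 and 17.2 in the monocyte lineage against 47.5 and 52.9 in the B lineage. In TLR9-/- libraries Trim12a gave 3 and 3 UMIs in the monocyte lineage and 0 and 0 in the B lineage. Trim5 gave 3 and 3 against 1 and 3 there. Trim12c fell by 0.49 (SE 0.08, edgeR adjusted p = 0.000645) and Trim30b stood at −1.01 (SE 0.28, edgeR adjusted p = 0.0122), the latter missing the threshold without WT 2 (−0.84, edgeR adjusted p = 0.0718). Monocyte precursors weigh on this contrast: without them, Trim12c and Trim30b each stood at 0.13 (edgeR adjusted p = 0.183 and 0.729) and Trim12a at −0.48 (adjusted p = 0.0582), while Trim30c at 1.88 (adjusted p = 0.00675) and Trim30d at 1.36 (adjusted p = 0.000521) became higher in the monocyte lineage. The precursor class is little told apart from granulocyte precursors: of the top 10 genes of one of its clusters, 6 were monocyte precursor markers and 5 granulocyte precursor markers, Elane, Mpo, Prtn3 and Ctsg among the 10. Without the library as a block, Trim12c kept its call (−0.48, edgeR adjusted p = 0.00545), while Trim34a (−1.53, adjusted p = 0.201), Trim5 (−1.62, adjusted p = 0.316), Trim12a (−1.27, adjusted p = 0.482) and Trim30b (−1.18, adjusted p = 0.0798) missed the threshold, as did Trim30a (0.28, adjusted p = 0.424).

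Trim30a rose in the monocyte lineage by 0.31 (SE 0.08, edgeR adjusted p = 0.00626), and Trim30c at 0.87 (SE 0.55, adjusted p = 0.186) and Trim30d at 0.30 (SE 0.24, adjusted p = 0.289) did not pass. The call for Trim30a was lost with plain library totals in place of TMM factors. The median over all genes then shifted by −0.24, and Trim30a stood at 0.07 (edgeR adjusted p = 0.471). With totals 26.5% of genes were called higher and 48.3% lower, and the 5 lower members stayed called. Over all alternatives Trim30a ran from 0.07 to 1.14, Trim34a from −1.54 to −0.42 and Trim5 from −1.62 to −0.61. Precursors weigh on Trim30a too. In TLR9-/- libraries it was 32 and 26.8 CPM in monocyte precursors and 74.7 and 79.1 CPM in monocytes. In WT libraries it was 49.6 and 27.5 CPM against 129 and 84.4 CPM. Trim34a fell in each genotype alone, by 1.18 in TLR9-/- (SE 0.39, edgeR adjusted p = 0.0145) and stood at −1.34 in WT alone (SE 0.16, edgeR adjusted p = 2.05e-06), so the residual Trim34a counts of TLR9-/- libraries followed the same order of lineages.

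Between neutrophils and the B lineage, 7 members could be tested, all but Trim34b, Gm15133 and Trim30c, and Trim30b rose the most, by 3.53 (SE 0.27, edgeR adjusted p = 2.14e-07). It was 26.3, 11.6, 22 and 32.4 CPM in neutrophils and 1.47, 3.14, 6.82 and 5.87 CPM in the B lineage of TLR9-/- 1, TLR9-/- 2, WT 1 and WT 2, without overlap, and it rose under library totals too, by 2.44 (adjusted p = 3.07e-06). Within the B lineage, Trim30b was 0.17, 0.308, 1.05 and 1.05 CPM in B-cell precursors, in the same order of libraries. WT B cells, at 22.6 and 17.7 CPM, did not separate from WT neutrophils, while TLR9-/- B cells, at 6.33 and 6.84 CPM, lay below TLR9-/- neutrophils. Over all 10977 genes tested, 37% were called higher and 36.7% lower in neutrophils. Here TMM moved the median over all genes by 1.11 against library totals, and most other calls turned on it. With TMM, Trim12c at 1.04 (SE 0.10, edgeR adjusted p = 1.31e-06), Trim30a at 0.57 (SE 0.12, adjusted p = 0.00115) and Trim12a at 0.46 (SE 0.18, adjusted p = 0.0347) were higher relative to the typical gene. With library totals, under which 16.3% of genes were called higher and 74.4% lower, they stood at −0.08 (adjusted p = 0.423), −0.54 (adjusted p = 0.000951) and −0.59 (adjusted p = 0.00683). Trim34a was lower by both, at −0.48 (SE 0.17, edgeR adjusted p = 0.0214) and −1.56, though it missed the threshold without WT 1 (−0.38, adjusted p = 0.139) and by DESeq2 (−0.50, adjusted p = 0.0983), as Trim12a did by DESeq2 (0.70, adjusted p = 0.163). Trim5 at −0.04 (adjusted p = 0.863) and Trim30d at 0.47 (adjusted p = 0.144) did not pass with TMM. Without the library as a block, Trim30b (3.45, edgeR adjusted p = 1.03e-05) and Trim12c (1.04, adjusted p = 3.94e-05) kept their calls, and Trim34a (−0.67, adjusted p = 0.53), Trim12a (0.33, adjusted p = 0.841) and Trim30a (0.49, adjusted p = 0.0995) missed the threshold.

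Between T cells and the B lineage, 7 members could be tested and 0 were called by edgeR, with 0 at an unadjusted p under 0.05 and 0 by DESeq2, while over all 10266 genes 23% were called higher and 22.7% lower. The values ran from −0.90 (SE 0.69) for Trim30b to 0.59 (SE 0.36, edgeR adjusted p = 0.199) for Trim5. T cells were few, 123 in WT 2, and the errors were wide.

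**Figure D4:**
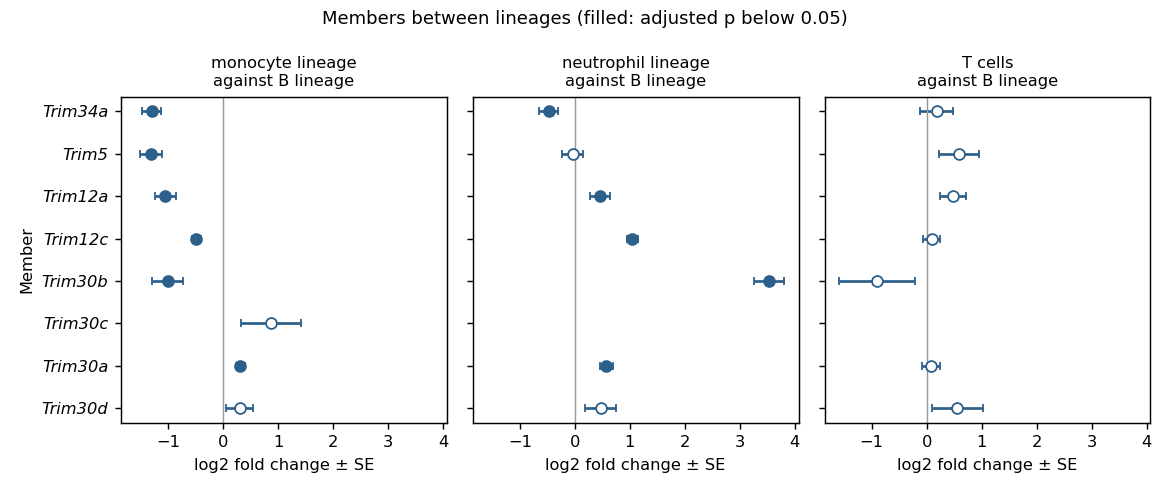
log2 fold change (points) ± standard error (bars) of each tested member between lineages of the same libraries, edgeR with TMM; filled points have an adjusted p below 0.05. Trim30b reaches 3.53 in neutrophils against the B lineage, and Trim34a and Trim5 are near −1.3 in the monocyte lineage. No point is filled for T cells. With library totals Trim12a, Trim12c, Trim30a and Trim30d change sign in the neutrophil panel. Points of Trim5, Trim12a and Trim30d rest mainly on WT libraries.

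The surroundings of the cluster were then compared between genotypes, with tests, since these genes are not members. Within 1 Mb on either side lie 111 other genes, of which 85 are olfactory receptor genes, 90 had 0 UMIs and only 4 had at least 100 UMIs. Of them 5 could be tested over all cells, 4 in the monocyte lineage and 3 in the B lineage, and 0 were called by edgeR in any of the 3, with 3, 3 and 1 at an unadjusted p under 0.05 and 0, 1 and 0 called by DESeq2. With 1 library left out, 1 was called in the monocyte lineage without TLR9-/- 1, TLR9-/- 2 or WT 1 and 2 without WT 2, and 2 in the B lineage without TLR9-/- 1. In the monocyte lineage 0.102% of all 11782 genes tested were called higher and 0.17% lower in TLR9-/-, and in the B lineage 0.126% and 0.153% of 11110. These main fits used no block for the experiment. With the library number as a replicate block some neighbours within 1 Mb were called, and more within 5 Mb, as given in the last section.

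The nearest genes with at least 100 UMIs were the adult beta-globin genes on one side and Fam160a2 and Cavin3 on the other. Hbb-bs (416 kb away) had a log2 fold change of −1.70 (edgeR adjusted p = 0.463) and Hbb-bt (430 kb away) one of −2.37 (edgeR adjusted p = 0.263). Within the pair, Hbb-bt made up 8.36% and 9.48% of the UMIs of erythroid cells in TLR9-/- and 12% and 21.2% in WT libraries. Erythroid cells numbered 883 and 768 in TLR9-/- and 1671 and 861 in WT libraries, and within that class the mean CPM of Hbb-bs was 1.74-fold and that of Hbb-bt 2.81-fold higher in WT, with values that overlapped. Fam160a2 (863 kb away) stood at −0.01 (edgeR adjusted p = 0.99) and Cavin3 (972 kb away) at 1.19 (edgeR adjusted p = 0.203). Trim6, nearer at 9.3 kb from Trim34a, gave only 10, 15, 16 and 21 UMIs and a log2 fold change of −1.22 (edgeR adjusted p = 0.228). Its CPM did not overlap, at 0.199 and 0.235 in TLR9-/- and 0.513 and 0.507 in WT libraries.

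Within 5 Mb, 344 other genes were listed and 67 had at least 100 UMIs. Of the 75, 64 and 55 that could be tested over all cells, in the monocyte lineage and in the B lineage, 1 each was called higher in TLR9-/- and 0 lower, and it was the same gene, Gm35082, a predicted gene 3.57 Mb away. Gm35082 gave 1278 and 2123 UMIs in TLR9-/- and 1 and 1 in WT libraries, a pooled ratio of 1081 with an exact 95% counting interval from 299 to 8932 (edgeR adjusted p = 0.00261 over all cells). A further gene, named after its values were seen, leaned to WT: Gvin1, an interferon-inducible GTPase gene 1.65 Mb away, gave 2 and 3 UMIs in TLR9-/- and 34 and 23 in WT libraries, a log2 fold change of −4.14 that did not pass (edgeR adjusted p = 0.0891).

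**Figure D5:**
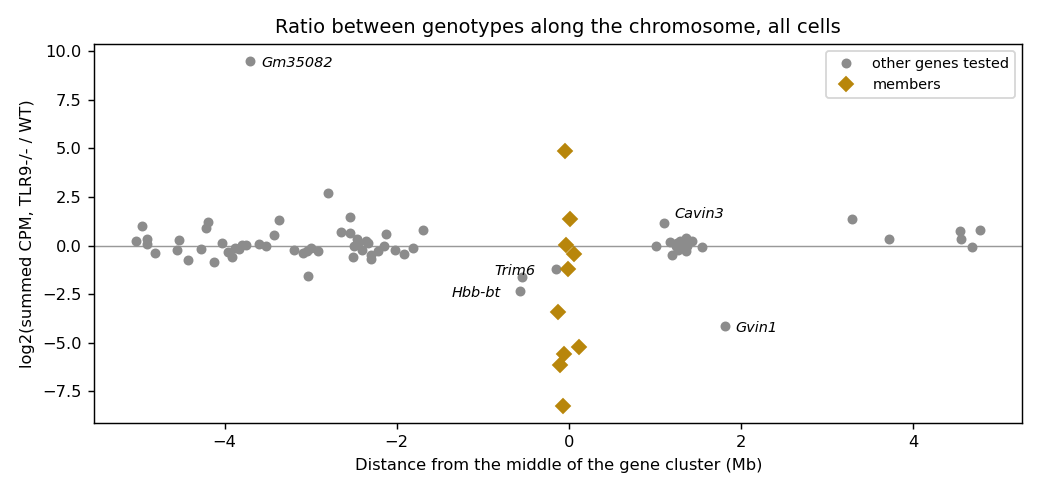
log2 ratio of summed CPM, TLR9-/- over WT in all cells, against distance in Mb from the middle of the cluster, for the members (diamonds) and the other genes tested within 5 Mb (circles), with sums under 3 UMIs set to 3. Members spread from about −8.2 to 4.9 at one place, most other genes lie near 0, and Gm35082 stands alone at about 9.5.

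A gene was counted as on in one genotype only where both of its libraries had at least 20 UMIs and the other genotype had under 5% of its level. Of 13088 genes that could meet this, 47 did, 24 in TLR9-/- and 23 in WT, and 17 of the 47 were immunoglobulin genes. Of the other 30, 5 were members, namely Trim5, Trim12a, Gm15133 and Trim30d in WT and Trim34b in TLR9-/-, as the choice of members implies, and 25 were not. Among non-members, 0 of 4 eligible genes within 1 Mb and 1 of 70 within 5 Mb met it, the 1 being Gm35082. Under a limit of 2% in place of 5%, 28 genes remained, 3 of them members (Trim5, Trim12a and Gm15133).

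Other genes of the same family and pathway did not pass between genotypes in the main edgeR fits, which used no block for the experiment. With the library number as a replicate block some genes of each list were called over all cells, as given in the last section. Of 59 other Trim genes, 34 could be tested over all cells, 28 in the monocyte lineage and 27 in the B lineage, and edgeR called 0 in each, with 9, 2 and 1 at an unadjusted p under 0.05 and 1, 0 and 0 called by DESeq2. The median log2 fold change was −0.11 over all cells against −0.02 for all genes tested. The lowest p among them belonged to Trim45, at 0.78 (edgeR adjusted p = 0.186), and Trim10, an erythroid gene, at −1.13 (edgeR adjusted p = 0.19).

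Of the interferon-stimulated genes, 51, 48 and 48 could be tested in the same 3 fits and edgeR called 0 in each, with 3, 5 and 5 at an unadjusted p under 0.05 and 3, 1 and 0 called by DESeq2. Without WT 2, the WT mouse with the lower level of this list, edgeR called 4 over all cells and 8 in the monocyte lineage. Their median log2 fold change was −0.30, −0.49 and −0.26, against −0.02, −0.01 and 0.0 for all genes tested. Oasl2, an oligoadenylate synthetase-like gene, stood at −2.22 and Cmpk2, a mitochondrial nucleotide kinase gene, at −0.96 over all cells (edgeR adjusted p = 0.151 for each). The 17 restriction factors and signalling partners, which include the ubiquitin-conjugating enzyme Ube2n and the TAK1 kinase gene Map3k7 that TRIM5 acts through, gave 0 calls by edgeR in each fit, 5, 1 and 1 at an unadjusted p under 0.05 and 1, 0 and 0 calls by DESeq2. Their medians were 0.05, 0.05 and 0.03, and the lowest p belonged to Tmem173 (STING, 0.56, edgeR adjusted p = 0.174) and Traf6 (−0.57, edgeR adjusted p = 0.255).

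For each member with enough UMIs, the genes with the most similar pattern over the 44 sums of 11 classes by 4 libraries were listed by Pearson correlation of log2(CPM + 1), as a description. The points share libraries, depth and genotype, so a gene that differs between the genotypes resembles any other that does. Trim34a was most like Eps8l1 (r = 0.89), which itself gave 15, 36, 259 and 159 UMIs. Trim5 (r = 0.80), Trim12a (r = 0.80) and Trim30d (r = 0.83) were all most like Hsh2d, an adaptor gene of haematopoietic cells with 92, 135, 411 and 303 UMIs. Trim34b was most like Ocel1 (r = 0.76, with 4183, 5564, 901 and 1055 UMIs). For the members read in both genotypes the nearest were Txnip for Trim12c (r = 0.87), Kctd12 for Trim30a (r = 0.90), Irf5 for Trim30c (r = 0.74) and 9330160F10Rik for Trim30b (r = 0.71).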

How the data were processed

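Members, gene lists and tests were chosen with earlier results of these data known. The authors made the libraries with a 10x 5′ kit, and they deposited raw UMI counts per gene and cell, made with Cell Ranger 3.0.1 per the file headers (STAR, Seurat 2.3.4 and mm10 per the labels); replicates were not pooled, and 0 columns belonged to other samples. The authors' later step that brought libraries to a common depth is not in these counts.

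Cells with 200 to 10000 genes and at most 10% mitochondrial UMIs were kept (39167 of 40545), the mitochondrial limit of the methods being read as a fraction, although it carries a percent sign. Cells marked as doublets by Scrublet (7.38% to 8.81% per library) were kept and left out in an alternative. Clusters (scanpy 1.11.5, leidenalg 0.10.2, 30 principal components, resolution 1) were built without the 354 genes within 5 Mb of the members and named from fixed markers by a rule set after the clusters were seen; 1040 cells stayed unnamed.

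UMIs were summed per library and lineage and tested with edgeR 4.0.16 (TMM, filterByExpr, quasi-likelihood F-test, two-sided, Benjamini-Hochberg over all genes tested); DESeq2 1.42.0 was an alternative. The step was tested on simulated data. Counting intervals are exact binomial at 0.95 and, like floors of 3 UMIs, cover counting error only. Named genes were the members, called or nearest neighbours, called genes or the 2 lowest p-values of each list, and the most alike genes by correlation. Library totals without TMM, the monocyte lineage without precursors and counts without shared barcodes were alternatives chosen after seeing the data. Replicates were separate mice, 2 per genotype.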

Additional observations from a re-analysis of the deposited data

Results flagged for a closer look

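Trim12c in T cells against the B lineage stood out because the genotypes lay on opposite sides: the log2 fold change was −0.01 (SE 0.20) in TLR9-/- libraries alone and 0.23 (SE 0.27) in WT libraries alone. Every TLR9-/- library had less Trim12c in T cells (38.6 and 43.7 CPM) than in the B lineage (41.9 and 50.9 CPM), and the WT libraries had 44.6 and 50.7 CPM in T cells against 44.6 and 40 CPM in the B lineage. The difference between genotypes was not tested, and both values are within their errors of 0.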

How the results depend on the processing

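Counts of genes called between genotypes depended strongly on the fit; the cause was not tested. Against 38, 32 and 31 genes over all cells, in the monocyte lineage and in the B lineage, DESeq2 called 851, 143 and 58, and a fit without a filter on low counts 605, 508 and 230. Leaving out 1 library gave 58 to 88, 60 to 118 and 15 to 401 (the last from 15 without WT 1 to 401 without TLR9-/- 1), with the lone library assumed to vary like the others. Cells of at least 1000 UMIs gave 19 in the B lineage, and the monocyte lineage without precursors 53. Between lineages, leaving out 1 library moved 8085, 8087 and 4697 calls (monocyte, neutrophil and T cells against the B lineage) to 7195 to 7861, 7549 to 7957 and 3698 to 4456, and WT libraries alone gave 3040 for T cells.

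Neighbours within 1 Mb went from 0, 0 and 0 calls to 0, 1 and 0 by DESeq2, 1, 2 and 2 without the filter, and 0 to 0, 1 to 2 and 0 to 2 with 1 library left out. Neighbours within 5 Mb went from 1 each to 11 and 3 (all cells, monocyte lineage) by DESeq2, 9, 8 and 3 without the filter, and 1 to 2, 2 to 3 and 1 to 5 with 1 library left out. Other Trim genes gave 1 over all cells by DESeq2 and 1 without the filter, and 0 to 1, 0 to 0 and 0 to 2 with 1 library left out. Interferon-stimulated genes gave 3 and 1 by DESeq2, 3, 13 and 3 without the filter, and 0 to 4, 0 to 8 and 0 to 3 with 1 library left out. Restriction factors gave 1 over all cells by DESeq2 and 0 to 0, 0 to 0 and 0 to 1 with 1 library left out. Genes on in one genotype only went from 47 to 28 at 2%, and members from 5 to 3.

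Libraries of the same number deviated together (correlation 0.323 over all cells, 0.419 in the monocyte and 0.3 in the B lineage). They were also alike in plasma cells, with 229 (TLR9-/-) and 156 (WT) under number 1 and 23 and 24 under number 2. Median UMIs of erythroid cells were 2902 and 2247 under number 1 and 9306 and 7932 under number 2. The main fits do not use this pairing. There are only 2 pairs, and the labels do not tie numbers to experiments. With the number as a replicate block, 1165, 363 and 63 genes were called, with 2, 2 and 2 neighbours within 1 Mb, 14, 6 and 3 within 5 Mb, and, over all cells, 4 other Trim genes, 2 interferon-stimulated genes (2 in the monocyte lineage) and 2 restriction factors.

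Members between lineages changed sign in 20 alternative values, lost their call in 16, gained one in 3 and kept direction and call in 246. Trim12c and Trim30b reached 0.13 in the monocyte lineage without precursors, and Trim5 0.16 in neutrophils with cells of at least 1000 UMIs. Library totals gave −0.59, −0.08, −0.54 and −0.58 for Trim12a, Trim12c, Trim30a and Trim30d in neutrophils. In T cells, where no member was called, values without the library block were −0.39 (Trim34a), −0.18 (Trim5), −0.16 (Trim12a), −0.24 (Trim30d) and −0.02 (Trim30a). Trim12c was −0.01 without the filter, −0.01 in TLR9-/- libraries alone and −0.05 by totals. Trim30a was −0.03 without the filter, −0.07 by totals, −0.22 in WT libraries alone and −0.17 (without TLR9-/- 1) to 0.13 with 1 library left out, and Trim34a ran from −0.15 (without WT 1) to 0.43. Without the library block, Trim34a, Trim5, Trim12a, Trim30b and Trim30a lost their monocyte-lineage calls. Between genotypes over all cells, where members were not tested, leaving out 1 library moved the log2 value of Trim34b between 4.19 (without WT 2) and 8.98 (without WT 1), of Trim30c between 0.61 and 2.54, of Trim30b between −1.48 and −0.84, and of Trim30a between −0.88 and 0.04 (without WT 1). Depth limits Gm15133, Trim34b and Trim30c most, since each rests on under 100 UMIs in any library.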
